A study of Mus musculus with 8 samples.

Results

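Cyclin-dependent kinase inhibitors are the brakes of the cell cycle, and 5 of their genes were examined for H3K27me3, the repressive histone mark written by Polycomb repressive complex 2. The members were taken by name: Cdkn2a, Cdkn2b and Cdkn2c of the INK4 family and Cdkn1a and Cdkn1b of the CIP/KIP family, 5 of 34324 annotated protein-coding and lncRNA genes on the autosomes and X. Peaks were read over each gene, within 2.5 kb of both annotated ends, and across the stretch of chromosome 4 from Cdkn2a to Cdkn2b. Of the 5 genes, 1 carried peaks, Cdkn2a, and it did so in all 4 libraries. The other 4 had no peak in any library.

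INK4 proteins bind the kinases Cdk4 and Cdk6 and keep cyclin D from activating them, which holds the retinoblastoma protein in its growth-suppressing form. CIP/KIP proteins bind cyclin and kinase complexes more broadly. Cdkn2a is unusual in having a pair of promoters whose transcripts share exons in different reading frames: the downstream start gives p16Ink4a, an INK4 inhibitor, and the upstream start gives p19Arf, which stabilises p53 by binding Mdm2. Cdkn2b, which encodes p15Ink4b, lies next to it. In neural stem cells the locus is known as a target of Polycomb, and loss of the Polycomb protein Bmi1 releases it.

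The data were chromatin immunoprecipitation sequencing (ChIP-seq) peak lists from female mouse neural stem cells, grown as lines from E14.5 embryos of mixed C57BL/6, 129 and Castaneus strain. All lines started as Smchd1 del/fl, with 1 deleted and 1 conditional allele of Smchd1, a gene for a chromatin protein needed for silencing of the inactive X, and in all of them the maternal 129 X carried the Xist deltaA allele beside a paternal Castaneus X. The del/del group (2 libraries) had received Cre from the MSCV-Cre-puro retrovirus, with puromycin from 24 hours and harvest 7 days after transduction. The del/fl group (2 libraries) was the untransduced portion of the lines, so transduction, selection and deletion cannot be told apart. Each library had its own whole-cell extract as control, 8 samples in all. The peak caller used between 11793402 and 14064030 ChIP tags per library, and the lists held between 32971 and 45566 peaks. Of 14 neural stem cell markers 3 (Sox1, Pax6 and Prom1) had a peak at their ends in any library, and of 14 markers of other cell types 6 did. These shares are 21.4% and 42.9%, beside 28% of all protein-coding genes. Pax6 had 9.01% and 16.7% cover in del/del, beside 8.70% and 22.1% in del/fl. Prom1 had 0% and 16.7% in del/del, beside 2.67% and 17.1% in del/fl. Sox1, a transcription factor gene, had 1.83% and 2.28% in del/fl and 0% in both del/del libraries. Sox2 and Nes, genes of a transcription factor and a filament protein of neural stem cells, had none, and these lists do not show expression.

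A single broad domain of H3K27me3 lay over Cdkn2a in every library. In mm10 it ran from 89265630 to 89291897 on chromosome 4 in del/del replicate 1, from 89265761 to 89292423 in del/del replicate 2, from 89265446 to 89292176 in del/fl replicate 1 and from 89265236 to 89293638 in del/fl replicate 2. It began downstream of the 3′ end of the gene (gene ID 12578, 89274473 to 89294619, transcribed from the higher to the lower coordinate), crossed the p16Ink4a start and stopped between the starts. The p16Ink4a start at 89282192 was inside the domain in 4 of 4 libraries. The p19Arf start at 89294619, 12427 bp upstream, was inside it in 0 of 4. As these are bulk cells, the mark in fewer cells and less of the mark per cell cannot be told apart.

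**Figure D1:**
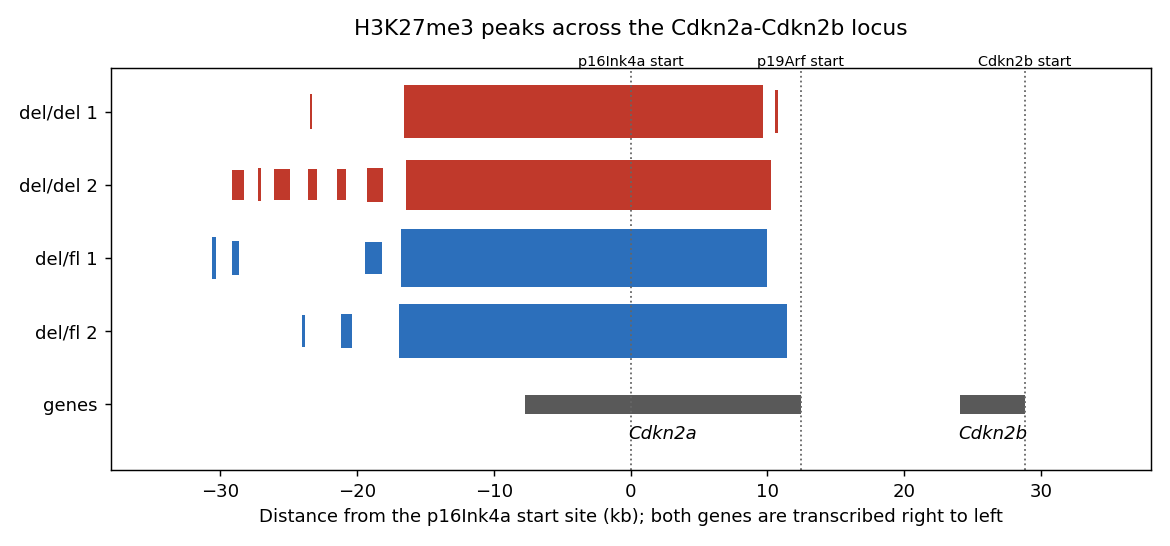
H3K27me3 peaks in each library against distance from the p16Ink4a start in kb. Bars are the deposited peaks, red for del/del and blue for del/fl, and bar height grows with the deposited pileup. Grey bars are the genes and dotted lines their start sites. In all 4 libraries the domain spans the p16Ink4a start and ends before the p19Arf and Cdkn2b starts.

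The 3 start sites of the locus thus fell on different sides of the domain's edge, and their promoters are printed to show what the edge divides. Each run is the 250 bases before the start, from RefSeq on GRCm38.p6 (the same build as mm10), minus strand, 5′ to 3′, with every CpG dinucleotide in capitals. They lie at chr4:89282193-89282442, chr4:89294620-89294869 and chr4:89311033-89311282, in the order shown.
p16Ink4a: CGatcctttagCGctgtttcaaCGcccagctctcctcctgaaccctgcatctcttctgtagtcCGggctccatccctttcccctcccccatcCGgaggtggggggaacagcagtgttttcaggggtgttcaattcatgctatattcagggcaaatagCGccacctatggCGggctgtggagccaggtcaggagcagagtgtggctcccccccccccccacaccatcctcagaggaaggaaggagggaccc
p19Arf: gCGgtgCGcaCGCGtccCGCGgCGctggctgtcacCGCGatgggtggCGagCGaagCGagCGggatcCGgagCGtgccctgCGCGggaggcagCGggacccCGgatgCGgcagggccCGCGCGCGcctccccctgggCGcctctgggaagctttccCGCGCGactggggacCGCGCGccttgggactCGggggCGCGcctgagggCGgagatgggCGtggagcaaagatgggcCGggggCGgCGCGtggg
Cdkn2b: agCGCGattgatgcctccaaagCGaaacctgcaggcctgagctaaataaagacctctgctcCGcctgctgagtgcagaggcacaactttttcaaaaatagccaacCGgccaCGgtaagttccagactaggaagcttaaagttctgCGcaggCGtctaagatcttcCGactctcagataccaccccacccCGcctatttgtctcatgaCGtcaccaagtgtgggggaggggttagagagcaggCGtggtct

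The marked promoter was the poorest of the 3 in CpG. The p16Ink4a window held 7 CpG with 60% G+C and was 100% covered in all 4 libraries. The p19Arf window held 40 CpG with 78.4% G+C, and the Cdkn2b window 12 with 53.6%. Both were 0% covered in all 4 libraries. Over 32851 such promoters in the RefSeq table the median was 6 CpG, 46.3% had at least 7, 33.5% at least 12 and 1.31% at least 40. The GC box GGGCGG, searched on both strands, occurred 2 times in the p19Arf window and not in the other windows, and 32.7% of all promoters held it. CCAAT, also on both strands, was in none of the 3 windows and in 33.9% of all promoters. All 5 members had a promoter in the table.

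At its upstream edge the domain came closest to p19Arf in del/fl replicate 2, where 981 bp separated them. The distance was 2722 bp in del/del replicate 1, 2196 bp in del/del replicate 2 and 2443 bp in del/fl replicate 1. In del/del replicate 1 a further peak of 207 bp followed after a gap, and its last base was 1661 bp from the start. The genotypes overlapped (2459 bp ± 372 in del/del, beside 1712 bp ± 1034 in del/fl, SD, n = 2, exact permutation test, two-sided, p = 0.67). The downstream edge was steadier: the first base varied over 525 bp among the 4 libraries and the last over 1741 bp. The domain reached 8843 and 8712 bp beyond the 3′ end of the gene in del/del, beside 9027 and 9237 bp in del/fl (two-sided exact permutation p = 0.33, n = 2, the smallest that 2 against 2 libraries allow).

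The domain was slightly shorter in both del/del libraries. Its length was 26268 and 26663 bp in del/del, beside 26731 and 28403 bp in del/fl. The groups did not overlap, but the nearest libraries differed by less than the libraries of either genotype did between themselves (26466 bp ± 279 and 27567 bp ± 1182, exact permutation p = 0.33, n = 2). With all peaks merged, the region of 28403 bp was 93.2% and 93.9% covered in del/del, beside 94.1% and 100% in del/fl. This order was common: of 855 autosomal regions of at least 10 kb with a peak in every library, 30.1% were less covered in both del/del than in both del/fl libraries, and 13.3% were more covered. Cover of all autosomes was 1.34% and 1.79% for del/del replicates 1 and 2, 1.45% for del/fl replicate 1 and highest, 1.93%, for del/fl replicate 2, the library with the longest domain, and its part in that length was not tested.

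In position the domain was well shared. Bases covered in all 4 libraries made up 92.0% of the merged region, against a median of 68.9% over the 855 regions (quartiles 52.4% and 81.0%). A lower share was found in 93.2% of them, and in 87.3% of the 197 that were 20 to 40 kb long. No library had more than 2 peaks in the Cdkn2a region, where the median region had 3 in its most broken library.

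By the peak caller's values the domain was long, and of moderate strength for a peak of at least 10 kb. Its pileup, the stacked tags that the caller gives for a peak, was 13.91 and 12.85 in del/del, beside 15.58 and 14.49 in del/fl, and is not scaled for depth. Its fold enrichment over local background was 5.88 and 5.71 in del/del, beside 6.75 and 6.63 in del/fl, and its −log10 q-value was 8.11 and 7.70 against 10.07 and 9.56. These are the authors' values for single peaks and were read only within each list. Among autosomal peaks the domain ranked 90 of 17102 and 111 of 26327 by length in del/del, beside 96 of 17564 and 101 of 26637 in del/fl. By pileup it ranked 868 and 845 among the same peaks in del/del, beside 650 and 708 in del/fl. Among autosomal peaks of at least 10 kb its fold enrichment lay under the median in each list. The medians were 7.51 and 6.555 in del/del, beside 7.73 and 6.997 in del/fl, and 32%, 41.7%, 40% and 45.6% of such peaks had a lower value, in the same order of libraries.

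**Figure D2:**
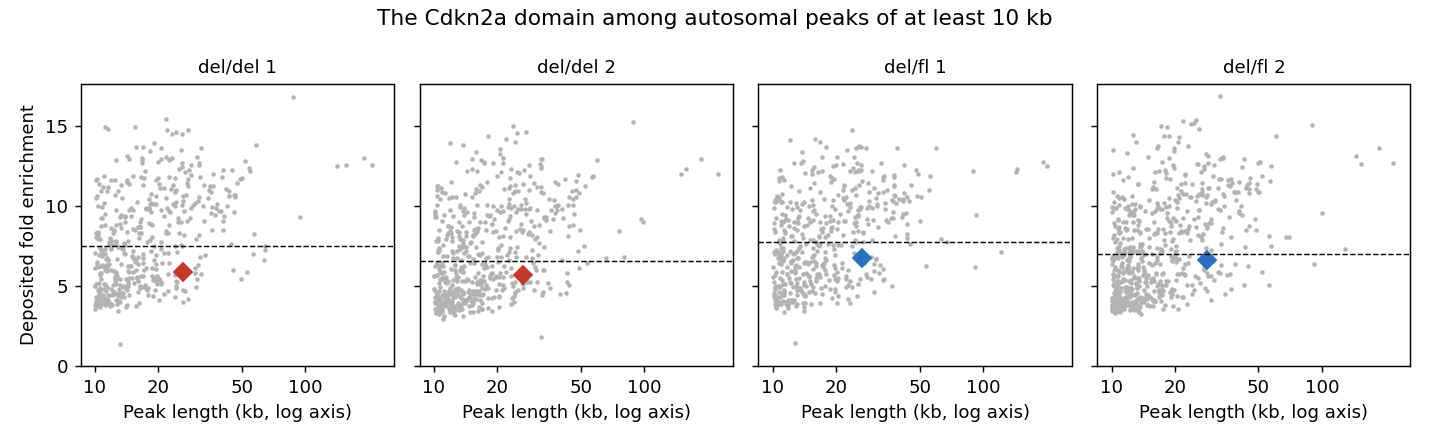
Autosomal peaks of at least 10 kb in each library (grey points), with peak length in kb on a log axis and the deposited fold enrichment. The coloured diamond is the Cdkn2a domain and the dashed line the median of the grey points. The domain lies below the dashed line in all 4 libraries, at 5.71 to 6.75.

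Measured as the percent of sequence covered by peaks, Cdkn2a did not differ between genotypes beyond the spread of the libraries. The gene body was 87.5% and 89.1% covered in del/del, beside 87.9% and 95.1% in del/fl, and the groups overlapped (88.3% ± 1.12 and 91.5% ± 5.13, SD, n = 2, exact permutation p = 0.67). Within 2.5 kb of both ends the cover was 52.1% and 53.05% in del/del, beside 50.6% and 65.2% in del/fl. The 3′ window was full in each library, so these values differ only by the cover near the p19Arf start. In limma's fit over all genes the difference was -5.33 points (standard error 6.46, 95% interval -27.6 to 17.0, adjusted p = 0.722). The wide interval does not show that the genotypes were alike. Without del/fl replicate 2 the difference at the ends was 1.98 points and in the gene body 0.434 points, so that library set the direction of both. Without del/fl replicate 1 the difference at the ends was -12.6 points (adjusted p = 0.0812 by limma). Leaving out a library leaves 1 in that genotype, which is then assumed to vary like the other genotype's pair. Limma called 0% of the 9131 genes with a peak at their ends (threshold 0.05 after adjustment). In such fits of 1 library against 2 that number of 0 genes became 1117 without del/del replicate 1 (1063 higher in del/del and 54 lower), 1558 without del/fl replicate 1 (263 higher and 1295 lower) and 297 without del/fl replicate 2 (296 higher and 1 lower), so its direction turned with the library left out. Before adjustment 517 genes had more cover in del/del with p under 0.05 and 382 had less. Among the 8064 autosomal genes tested these numbers were 143 and 379. The median autosomal gene tested differed by -0.965 points.

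**Figure D3:**
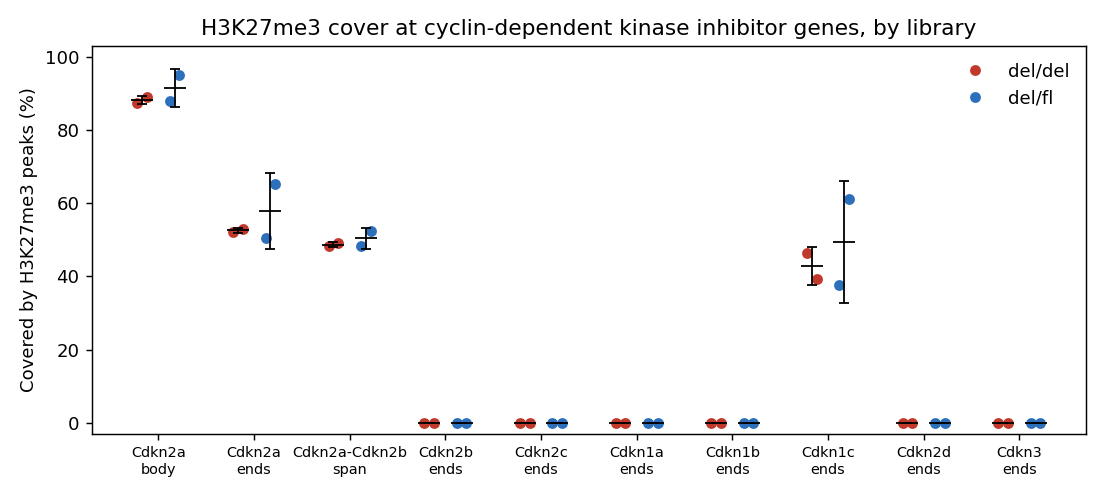
Percent covered by H3K27me3 peaks in each library (points), with mean and SD in black, del/del in red and del/fl in blue, n = 2 each. Cdkn2a lies between 50.6% and 95.1% by the measure, its span with Cdkn2b near 50%, and Cdkn1c between 37.6% and 61.3%. The remaining genes are at 0%.

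Across the 36560 bp from the 3′ end of Cdkn2a to the 5′ end of Cdkn2b (89274473 to 89311032) cover was 48.2% and 49.1% in del/del, beside 48.4% and 52.4% in del/fl (48.7% ± 0.617 and 50.4% ± 2.83, n = 2, exact permutation p = 0.67). All of it lay over Cdkn2a. The 11669 bp between the genes, the body of Cdkn2b and the 50 kb beyond its 5′ end were 0% covered in each library. With 50 kb added on both sides, cover was 19.5% and 23.8% in del/del, beside 21.0% and 21.5% in del/fl (two-sided exact permutation p = 1, n = 2).

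The flanks of the domain were unequal. On the side of the Cdkn2a 3′ end short peaks followed within 25 kb of the gene: 1 and 6 in del/del, beside 3 and 2 in del/fl, none longer than 1229 bp and with pileups of 5.48 to 9.88. They covered 186 and 4708 bp in del/del, beside 1924 and 1013 bp in del/fl, so the del/del libraries differed from each other by more than the genotype means did. On the Cdkn2b side no peak lay within 25 kb of Cdkn2a in any library. Within 250 kb on that side del/del replicate 2 had a peak of 421 bp at 171785 bp, and the other libraries had none. Of 6 genes within 250 kb of Cdkn2a, only the lncRNA gene Gm12610, which lies 561 bp upstream of it and runs across Cdkn2b, had cover at its ends, 2.07% in del/del replicate 1 and 9.59% in del/fl replicate 2, from the same peaks that cover Cdkn2a. Mtap, a gene of methionine salvage, had none.

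Cdkn2b (gene ID 12579, 89306289 to 89311032) was bare in both genotypes although it neighbours the domain. Its nearest peak was the domain itself or its small satellite, 13.3 and 13.9 kb away in del/del, beside 14.1 and 12.7 kb in del/fl. These libraries give the order p16Ink4a marked, p19Arf unmarked, Cdkn2b unmarked. A cover of 0% means only that no stretch passed the peak caller's threshold, below which the lists hold nothing. The weakest peaks listed had pileups of 5 to 6, and the lowest −log10 q-values of the lists were 1.008 to 1.037.

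The third INK4 member, Cdkn2c, encodes p18Ink4c (gene ID 12580, chromosome 4, 109660876 to 109666756). It had no peak within 2.5 kb, and none of the 7 genes within 250 kb had cover at their ends. Its nearest peaks were 393 and 104 kb away in del/del, beside 427 and 72.1 kb away in del/fl, the nearest of them 223 bp long. The nearest peaks in the replicates numbered 2 had pileups of 5.43 in del/del and 5.03 in del/fl. The lists of the replicates numbered 1 held no peak with a pileup under 6, so these distances are not comparable between lists. Its promoter at the upstream start held 29 CpG and that at the downstream start 6.

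Of the CIP/KIP members, Cdkn1a encodes p21Cip1, the inhibitor induced by p53 after DNA damage (gene ID 12575, chromosome 17, 29090979 to 29100722). It was 0% covered in all 4 libraries. The nearest peak was 134 kb away in del/del replicate 1 and 114 kb away in the other 3 libraries, over Cpne5, a copine gene. Cpne5 had 26.6% and 28.9% of its ends covered in del/del, beside 25.2% and 38.9% in del/fl, and was among 3 of 20 genes within 250 kb with any cover. Cdkn1b encodes p27Kip1, which accumulates as progenitors leave the cycle (gene ID 12576, chromosome 6, 134920401 to 134925525). It was also at 0% throughout, with the nearest peaks 122 and 79.2 kb away in del/del, beside 202 and 203 kb in del/fl and 0 of 14 genes within 250 kb covered at their ends. Those nearest peaks were short, 192 to 1188 bp, with pileups of 5.94 to 6.75.

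**Figure D4:**
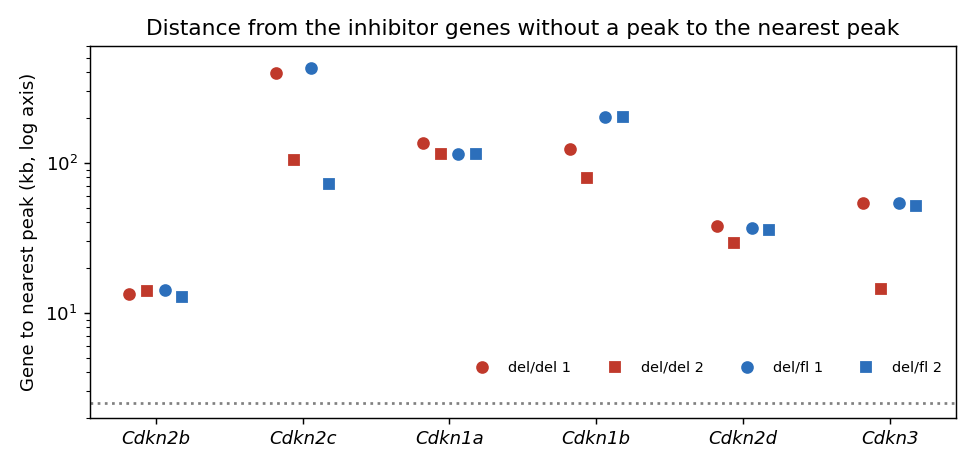
Distance in kb (log axis) from each inhibitor gene that has no peak to the nearest peak of each library, red for del/del and blue for del/fl, circles for replicate 1 and squares for replicate 2. The dotted line is the 2.5 kb window. Cdkn2b lies at 12.7 to 14.1 kb in all libraries, while the distance at Cdkn2c ranges from 72.1 to 427 kb.

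The share of members with a peak was near that of all genes. In any library 28% of 21627 protein-coding genes had a peak within 2.5 kb of an end, and 15.3% had such a peak in all 4 libraries, against 1 of 5 members by either count. No member gained peaks in both del/del libraries alone or lost them there, as 0.504% and 0.592% of protein-coding genes did.

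The 3 other genes of the inhibitor family were read the same way. Cdkn1c, the imprinted gene of p57Kip2, had 46.4% and 39.2% of its ends covered in del/del, beside 37.6% and 61.3% in del/fl (adjusted p = 0.810 by limma). The groups overlapped, and as at Cdkn2a the highest value was that of del/fl replicate 2. Cdkn2d, which encodes p19Ink4d, and Cdkn3, a phosphatase gene, had no peak, with the nearest at 29.1 to 38 kb and 14.4 to 53.9 kb. Peaks were thus found at 1 of 4 INK4 genes and 1 of 3 CIP/KIP genes.

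Genes that act with the inhibitors were read against the 28% of protein-coding genes with a peak in any library. Of 13 cyclins and kinases of the cycle only Cdk6, a kinase that INK4 proteins bind, had peaks, with 42.9% and 42.1% cover in del/del, beside 47.7% and 48.6% in del/fl (adjusted p = 0.344 by limma). Of 11 retinoblastoma and E2F genes 3 had a peak in some library and 0 in all 4. E2f5, which encodes a repressive E2F, had 0% and 2.88% in del/del, beside 11.9% and 9.81% in del/fl (adjusted p = 0.337). E2f8, another repressive E2F gene, had 1.96% and 11.3% in del/del, beside 0% in del/fl, a gain by the rule above. E2f4 had 4.35% in del/del replicate 2 and 0% elsewhere. Of 13 genes of the p53 axis 4 had a peak. Trp73, a relative of p53, was 45.7% and 52.9% covered in del/del, beside 48.3% and 46.1% in del/fl, and Gadd45b, a stress response gene, 50% and 52.5% against 50.3% and 51.0%. Gadd45g, of the same family, had 10.3% and 3.47% in del/fl and 0% in both del/del libraries, a loss by the same rule, as was Sox1 among the neural stem cell markers. Npm1, the gene of a nucleolar protein that binds p19Arf, had 6.80% in del/fl replicate 2 and 0% in the other libraries. No gene of these lists passed limma's test.

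Of 23 Polycomb and H3K27 demethylase genes 9 (39.1%) had a peak in some library and 7 had peaks in all 4. Among all protein-coding genes 28% and 15.3% did. Bmi1, whose product is a known repressor of Cdkn2a, had 18.4% and 11.7% cover in del/del, beside 23.3% and 29.2% in del/fl (adjusted p = 0.601 by limma). Cbx8 had means of 43.0% and 50.4%, and Pcgf3 means of 6.82% and 11.7%. Kdm6b, an H3K27 demethylase gene, had 5.24% and 7.14% in del/del, beside 0% and 2.82% in del/fl. Means were higher in del/del at 4 and lower at 5 of the 9 genes, with a median difference of -3.02 points. Among the 8064 autosomal genes tested, 3030 had a higher and 4651 a lower mean, with a median of -0.965 points.

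Of 9 transcription factor genes known to act on Cdkn2a or Cdkn2b, 4 had peaks in all 4 libraries, beside 15.3% of all protein-coding genes. These short lists were not tested as sets. Tbx3, a repressor of p19Arf, was 100% covered throughout, and its relative Tbx2 had means of 79.9% and 80.7%. Zbtb7a, a gene of a repressor of p19Arf, had 4.04% and 15.2% in del/del, beside 3.23% and 13.7% in del/fl. Ets1, an activator of p16Ink4a, had 26.8% and 32.5% in del/del, beside 30.6% and 50% in del/fl (adjusted p = 0.624 by limma). Of 10 factors known to act on Cdkn1a or Cdkn1b 3 had a peak. Foxo4, an X-linked forkhead factor gene, was 86.7% and 100% covered in del/del, beside 41.3% and 42.9% in del/fl (adjusted p = 0.275 by limma), and Foxo1, its autosomal relative, had means of 3.84% and 8.88%. Klf4, a gene of an activator of Cdkn1a, had 5.90% in del/del replicate 2, 6.04% in del/fl replicate 2 and 0% in both replicates numbered 1. The medians of these lists were -0.442 and -0.0700 points. Over all 9131 genes tested the median was -0.225 points, and over the autosomal genes tested it was -0.965 points.

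Among the genes whose cover at the ends was most like that of Cdkn2a over the 4 libraries, by mean absolute difference over 6058 protein-coding genes, were Plk5, Jakmip3, Drd2 and Drd5. Their differences from Cdkn2a were 1.59, 1.84, 1.95 and 2.03 points. Plk5, a polo-like kinase gene, had 48.95% and 52% in del/del, beside 48.9% and 64.7% in del/fl. Drd2, a dopamine receptor gene, had 48.4% and 50% against 50% and 64.8%.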

How the data were processed

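H3K27me3 was measured in 4 libraries of 8 samples, and the other 4 were whole-cell extracts used as controls. The submitters' processing notes name Bowtie 0.12.9, MACS2 2.1.0.20140616 and the build mm10. Broad peaks were called library by library with a q-value setting of 0.05 and the larger data set sampled down, per the file headers. Each list still holds peaks short of that setting. The lowest −log10 q-values were 1.037 and 1.014 in del/del, beside 1.037 and 1.008 in del/fl. Of the deposited values, pileup is a signal that is not scaled for depth, fold enrichment is a ratio to local background, and p-values and q-values are on the −log10 scale.

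The percent of each window covered by peaks was computed with Python 3.11.15, numpy 2.4.6 and pandas 2.3.3 and drawn with matplotlib 3.10.9. Gene ends were tested over all genes with a peak in any library by limma 3.58.1 in R 4.3.3 (variance trend, robust, Benjamini-Hochberg adjustment), and single values by exact two-sided permutation. The code was tested on simulated data. Gene positions and promoters came from RefSeq (GRCm38.p6), which gives no transcript names, so the upstream Cdkn2a start was taken as that of p19Arf from general knowledge. Separate embryos or cultures are not stated for the libraries, so each p-value reflects only the spread between these samples.

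The members and gene lists were chosen with earlier results of these data known. Genes named are the members, genes within 250 kb of them, the 5 most alike (1 of them is not reported here), and up to 4 per list with the largest differences between genotype means. Genes at 0% were also named by role. Alternatives were stricter or equal-length lists, other windows and scales, filters, a replicate block, and leaving out each library.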

Additional observations from a re-analysis of the deposited data

How the results depend on the processing

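Cdkn2b, Cdkn2c, Cdkn1a and Cdkn1b were at 0% under every alternative run. Among these runs were windows of 1 and 5 kb, stricter peaks (−log10 q-value of at least 5) and lists of equal length. None of them could have given cover, so they are no test of the 0%. The stricter and equal lists are parts of the main lists, and the nearest peak to any of these genes was 12.7 kb away. The small difference at Cdkn2a rested on single libraries. At its ends it ran from -12.6 to 1.98 points when each library was left out, in the gene body from -6.82 to 0.434 and over the span to Cdkn2b from -3.76 to 0.239, in each case positive only without del/fl replicate 2. After division by each library's autosomal cover the difference over the span was 1.49, a difference between ratios and not in points. With 50 kb on each side the unscaled difference was 0.418 points, -0.807 with stricter peaks and -0.0143 with equal lists. It ran from -1.74 to 2.575 without single libraries, negative only without del/del replicate 2. The adjusted p at Cdkn2a lay between 0.0812 and 0.999 over all alternatives (limma). The count of 0 genes called became 111 with stricter peaks, 21 and 93 with windows of 1 and 5 kb, 222 after scaling, and 0 to 1558 without single libraries (1117 without del/del replicate 1, 1558 without del/fl replicate 1 and 297 without del/fl replicate 2). Fits without a library compare 1 with 2 and take the spread from the pair. The cause of the other changes was not tested. With the replicate number as a replicate block, limma called 0 genes and gave -5.33 points at Cdkn2a (adjusted p = 0.624). The numbers are not stated to pair the libraries, and the deviations of same-numbered libraries had a correlation of 0.104 across genes. The lists nevertheless split by replicate number. Those numbered 1 held 17102 autosomal peaks in del/del and 17564 in del/fl, with a lowest pileup of 6 in both. Those numbered 2 held 26327 and 26637, with a lowest pileup of 5. The cause of this split was not tested. No reads were used, so signal below the peak threshold and its depth cannot be seen.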

Other observations

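The contrast between a marked start with few CpG and a bare start with many was looked for at other genes after it had been seen at Cdkn2a. By the RefSeq promoters, 1425 autosomal genes had starts at least 5 kb apart. Of these, 88 (6.18%) had a start under a peak in all 4 libraries and another under a peak in none, and 12 had every start marked. Among the 88 genes the marked start held more CpG in its 250 upstream bases at 60, fewer at 23 and equally many at 5, taking the richest start of each kind. Cdkn2a was among the 23, and its difference of 33 CpG was reached by no other of the 88 genes. Over all autosomal starts, 2.09% of those with 0 to 4 CpG, 5.73% with 5 to 9, 7.67% with 10 to 19, 6.47% with 20 to 29, 6.13% with 30 to 39 and 7.36% of the 421 with 40 or more were marked in all 4 libraries. The windows are short, so an island beside the p16Ink4a start would not be counted, and starts that the table lacks were not seen. What sets the edge of the domain was not tested.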
